A study of Homo sapiens with 16 samples.

Results

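After a pulse of the MPS1 inhibitor, NCI-H1944 cells labelled as lacking both STING and MAVS were set against cells labelled as lacking STING alone, so that the pair differs by the label of MAVS. NCI-H1944 is an established human lung adenocarcinoma line. The members are all 4 libraries of these groups, chosen by their column names, of 16 libraries in the whole series. They are 2 libraries of the double knockout after the inhibitor (DKO MPS1i, genotype STING/MAVS knockout) and 2 libraries of the line made with a guide against STING (STINGsg MPS1i, genotype STING knockout). Each line also has 2 libraries given the solvent alone (DKO DMSO and STINGsg DMSO). MPS1i is BAY-1217389, given at 100 nM for 48 h and then washed out, with 24 h of further culture before harvest. The labels do not say whether either line is 1 clone or whether the 2 libraries of a group came from separate cultures, so each p-value speaks only of the variation among these libraries, which may be technical.

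MPS1, encoded by TTK, is the kinase that starts the spindle assembly checkpoint, and cells that divide without it missegregate chromosomes. Separate routes carry a nucleic acid alarm to the interferon genes. Cytosolic DNA is read by cGAS and relayed by STING, and double-stranded RNA is read by RIG-I (listed as DDX58) and MDA5 (IFIH1) and relayed by MAVS on mitochondria. Both routes end in IRF3 and NF-kB, interferon then acts through its receptors on transcription factors such as STAT2 and IRF9, and these drive the interferon-stimulated genes.

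Levels below are CPM, counts brought to a common library total with TMM scaling, and fold changes are log2 values of DKO over STINGsg with their standard error (SE). STING1 stood at 4.04 and 4.21 CPM in DKO libraries after MPS1i, against 5.99 and 5.89 CPM in STINGsg libraries, and at 29.1 and 28.9 CPM in the libraries labelled WT (SCR) after MPS1i. STING1 transcript was therefore low in both lines compared, and a little lower in DKO (log2 -0.53, SE 0.12, adjusted p = 0.0036, edgeR quasi-likelihood test). Without DKO replicate 1 that call was lost (log2 -0.49, adjusted p = 0.07). MAVS had 186.0 and 191 CPM in DKO libraries, against 182 and 187 CPM in STINGsg libraries (log2 0.03, SE 0.05, adjusted p = 0.73). Frameshifts made by a guide need not alter transcript level, so the label of MAVS loss cannot be checked from these counts, and "DKO" below means the libraries so labelled. TTK itself had 34.4 and 35.3 CPM in DKO libraries and 32.2 and 28.7 CPM in STINGsg libraries (log2 0.19, adjusted p = 0.1). TTK was called with no filter on low counts (adjusted p = 0.049), and under DMSO it was higher in DKO (log2 0.28, adjusted p = 0.0085).

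Of 17950 genes tested, 2537 differed between DKO and STINGsg after MPS1i at an adjusted p under 0.05 (14.1%). Of these, 1380 were lower in DKO (7.69% of all tested) and 1157 were higher (6.45%), and the median of all genes was a log2 fold change of 0.0026. The sizes were unequal, with 257 genes lower by at least 2-fold (1.43%) and 118 higher by at least 2-fold (0.657%). Leaving out DKO replicate 1 gave the fewest calls, 860 lower and 613 higher, with 75 higher by at least 2-fold, and DESeq2 gave 73 of these. All 60 listed interferon-stimulated genes were among those lower, 59 of them by at least 2-fold. Gene lists here and below were written with earlier results of these data known, so counts of their members may partly reflect that choice. In bulk RNA, fewer responding cells and less transcript in each cell cannot be told apart.

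**Figure D1:**
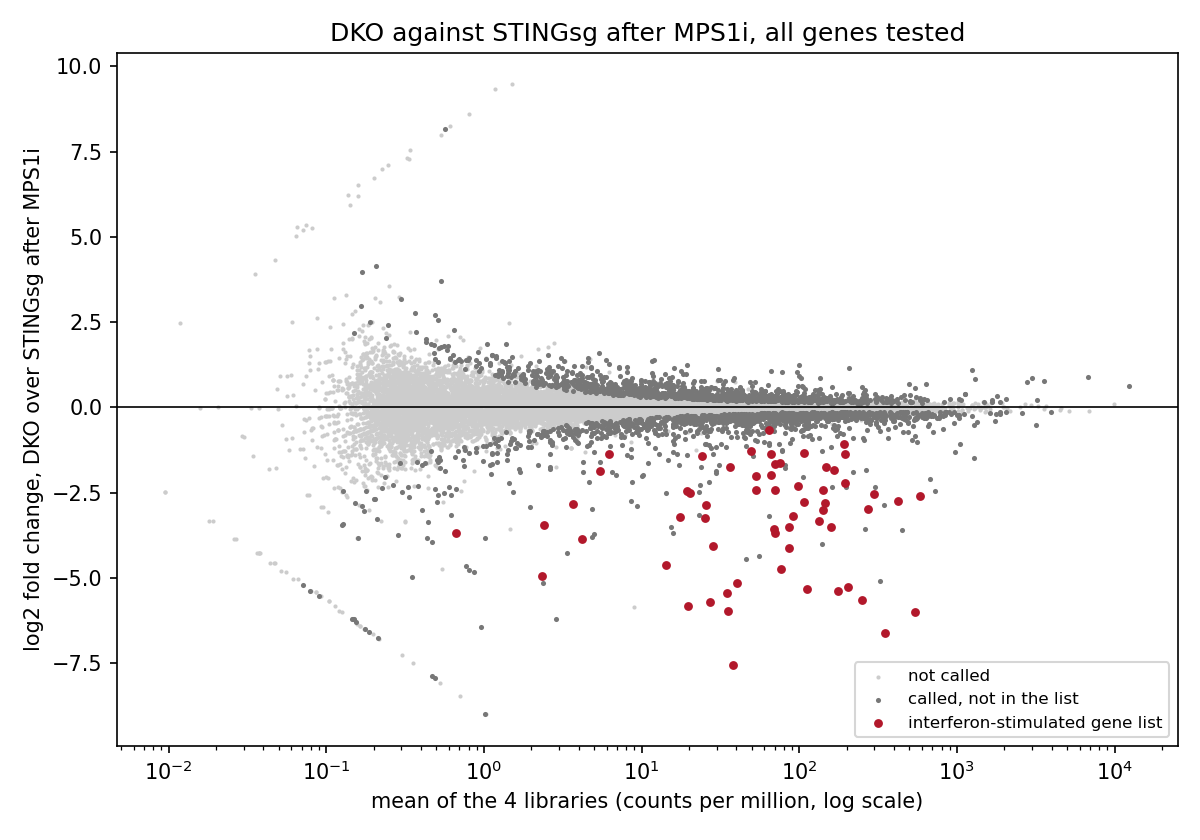
Each point is a gene, with its mean over the 4 libraries in CPM on a log axis and its log2 fold change of DKO over STINGsg after MPS1i on the vertical axis; grey points are genes called or not called at an adjusted p under 0.05, and red points are the 60 listed interferon-stimulated genes. All 60 lie below 0, with a median of -2.92, while the median of all 17950 genes is 0.0026.

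The upstream sequences of a few genes are shown because many genes induced by interferon carry an interferon-stimulated response element. The core searched was GAAA, any 2 bases, then GAAA, on either strand, in windows of 300 bases (250 before to 50 after each annotated start) from RefSeq on GRCh38.p14. Cores on both strands and overlapping cores were counted. The 250 bases before the start are printed 5′ to 3′ on the gene's strand, with the core in capitals. They belong to IFIT1 (chr10:89392373-89392622, plus strand), ISG15 (chr1:1013247-1013496, plus strand), IFIH1 (chr2:162318685-162318934, minus strand), DDX58 (chr9:32526197-32526446, minus strand) and ACO1 (chr9:32384393-32384642, plus strand). The first 4 genes were lower in DKO after MPS1i and ACO1 was higher.
IFIT1: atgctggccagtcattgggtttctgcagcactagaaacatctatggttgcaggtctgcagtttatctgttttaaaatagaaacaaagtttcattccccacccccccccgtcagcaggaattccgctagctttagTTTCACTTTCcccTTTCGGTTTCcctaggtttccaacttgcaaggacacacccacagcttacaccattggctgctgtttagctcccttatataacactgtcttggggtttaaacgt
ISG15: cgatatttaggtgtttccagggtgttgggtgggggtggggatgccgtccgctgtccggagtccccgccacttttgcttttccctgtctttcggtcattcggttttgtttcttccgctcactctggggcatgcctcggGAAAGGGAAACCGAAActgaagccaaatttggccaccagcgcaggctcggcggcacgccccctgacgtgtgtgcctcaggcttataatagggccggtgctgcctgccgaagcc
IFIH1: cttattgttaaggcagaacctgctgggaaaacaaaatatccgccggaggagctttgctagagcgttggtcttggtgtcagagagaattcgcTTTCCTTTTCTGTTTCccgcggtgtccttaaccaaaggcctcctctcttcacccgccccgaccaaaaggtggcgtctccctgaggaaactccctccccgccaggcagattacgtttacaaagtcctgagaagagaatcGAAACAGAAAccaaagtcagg
DDX58: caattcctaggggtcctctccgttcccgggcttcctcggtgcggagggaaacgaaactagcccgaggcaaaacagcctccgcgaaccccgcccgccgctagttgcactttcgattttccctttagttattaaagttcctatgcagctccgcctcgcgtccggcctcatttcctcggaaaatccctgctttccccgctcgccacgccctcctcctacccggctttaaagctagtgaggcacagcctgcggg
ACO1: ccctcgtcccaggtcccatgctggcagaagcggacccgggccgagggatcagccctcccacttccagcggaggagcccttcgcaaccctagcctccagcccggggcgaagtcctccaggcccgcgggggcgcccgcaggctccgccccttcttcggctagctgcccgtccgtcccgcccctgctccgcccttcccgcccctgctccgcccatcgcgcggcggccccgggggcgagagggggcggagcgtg
IFIT1 holds 2 cores that begin 116 and 103 bases before the start, and ISG15 holds 2 overlapping cores that begin 113 and 107 bases before it. IFIH1 holds 3, of which 1 begins 21 bases before the start. DDX58 and ACO1 hold no core with this exact spacing in the window. Other spacings, such as the gaaacgaaa in the printed DDX58 sequence, were not counted. Of the 10 largest falls among genes of at least 1 CPM, 8 had a window and 6 of these held the core (IFIT1, IFIT3, MX1, HERC5, RSAD2 and IFNL2). Of the 10 largest rises, 7 had a window and 1 held the core (TOX2). For comparison, 1255 of all 35116 windows held it (3.57%). That share is per window, whereas the counts above are per gene, and some genes have more than 1 window. Only 61.1% of the genes lower by at least 2-fold and 68.5% of all genes tested had a window, so a comparison of shares over whole gene sets is void.

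The interferons themselves were near or at 0 in DKO. IFNL1, a type III interferon, had 0 reads in both DKO libraries and 0.953 and 1.00 CPM in STINGsg libraries, at least 8.55-fold lower in DKO against a floor of 3 counts per library. IFNB1, the type I interferon, also had 0 reads in both DKO libraries, against 0.191 and 0.658 CPM in STINGsg libraries (at least 3.7-fold lower, with bounds of 5.74-fold without STINGsg replicate 1 and 1.66-fold without STINGsg replicate 2, a setting added after seeing the data). Under DMSO IFNL1 had no read in either line, and IFNB1 had 0 and 0.0278 CPM in DKO libraries and no read in STINGsg libraries. IFNL2 and IFNL3 are near-identical copies between which reads can be split. IFNL2 had 0 reads in DKO libraries, against 1.98 and 2.08 CPM in STINGsg libraries, and IFNL3 had 0 and 0.0473 CPM in DKO libraries, against 1.91 and 1.91 CPM in STINGsg libraries. The adjusted p-values for the 4 genes lay between 1.8e-09 and 0.00053 (edgeR quasi-likelihood test).

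Of 14 tested interferons, chemokines and immune ligands of 18 listed, 12 were lower in DKO after MPS1i and none was higher, with a median of -3.43 (-2.54 with the 3 genes that DKO lists at 0 set to their bound). CXCL10, which draws T cells, had 0 and 0.142 CPM in DKO libraries, against 1.45 and 1.49 CPM in STINGsg libraries (log2 -4.66, SE 0.53, adjusted p = 6.5e-07). CCL5, another T cell chemokine, had 4.21 and 3.97 CPM in DKO libraries, against 16.3 and 16.4 CPM in STINGsg libraries. Its groups did not overlap (log2 -1.99, SE 0.10, adjusted p = 1.8e-14), yet DKO libraries after MPS1i were not at 0. TNFSF10, the death ligand TRAIL, had 5.05 and 4.16 CPM in DKO libraries, against 43.8 and 39.7 CPM in STINGsg libraries (log2 -3.15, SE 0.10). TNFSF13B, the B cell factor BAFF, had 0.61 and 0.852 CPM in DKO libraries, against 9.27 and 9.25 CPM in STINGsg libraries (log2 -3.71, SE 0.18). CD274, which encodes PD-L1, had 2.70 and 2.84 CPM in DKO libraries, against 10.1 and 10.5 CPM in STINGsg libraries (log2 -1.90, SE 0.13). Smaller falls were called for CXCL16 (log2 -0.52) and IL15 (log2 -0.50). CCL20 (log2 -0.83, adjusted p = 0.085) and IFNE (log2 -1.81, adjusted p = 0.051) were not called. Under DMSO none of the 14 was called, and the interaction was called for 5 of them, all lower (CXCL16, CCL5, TNFSF10, TNFSF13B and CD274). CXCL10 had 0 and 0 CPM in DKO libraries under DMSO, against 0.0411 and 0.195 CPM in STINGsg libraries (adjusted p = 0.053), and its interaction was not called (log2 0.19, adjusted p = 0.81). The interactions of IFNB1, IFNL2 and IFNL3 were not called either (adjusted p = 0.14, 0.12 and 0.94). That of IFNL1 could not be estimated, as DKO after MPS1i and both lines under DMSO had no read. IFNB1 and IFNL2 had at most 2 reads per library under DMSO (interaction SE 3.29 and 2.71). CXCL10 had 0 reads in both DKO libraries under DMSO and only 1 and 4 reads in STINGsg libraries. For CXCL10, IFNB1, IFNL1 and IFNL2 the test therefore cannot decide whether the difference depended on the pulse.

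The receptors that feed MAVS were among the genes that differed. DDX58 had 42.4 and 37.8 CPM in DKO libraries, against 488 and 471 CPM in STINGsg libraries (log2 -3.57, SE 0.07, adjusted p = 2.2e-21). IFIH1 had 15.5 and 17.4 CPM in DKO libraries, against 273 and 253 CPM in STINGsg libraries (log2 -4.01, SE 0.08, adjusted p = 1.2e-20). For both sensors the DKO libraries after MPS1i lay near the DMSO libraries of either line, which for IFIH1 had 16.4 and 16.9 CPM in DKO and 23.0 and 28.6 CPM in STINGsg. DHX58, which encodes the RIG-I-like receptor LGP2, had log2 -2.76 (SE 0.13), and TRIM25, a ubiquitin ligase that acts on RIG-I, had log2 -1.85 (SE 0.04). In all, 10 of 24 genes of RNA sensing were lower, 4 of them by at least 2-fold, and none was higher, with a list median of -0.14. The 4 were DDX58, IFIH1, DHX58 and TRIM25. Over all genes tested, 7.69% were lower.

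On the DNA side, 5 of 18 tested genes were lower and none was higher, with a list median of -0.03 (0.002 at equal depth). That count stands beside 7.69% of all genes lower. CGAS had 40.8 and 39.6 CPM in DKO libraries, against 41.3 and 41.3 CPM in STINGsg libraries (adjusted p = 0.84). IFI16, a nuclear and cytosolic DNA sensor, had 100.0 and 98.8 CPM in DKO libraries, against 514 and 499 CPM in STINGsg libraries (log2 -2.35, SE 0.05). SAMHD1, which breaks down deoxynucleotides, had log2 -3.18 (SE 0.07), and TREX1, the cytosolic DNA exonuclease, had log2 -1.59 (SE 0.22). TRIM56, a ubiquitin ligase reported to act on STING and cGAS, had log2 -1.04 (SE 0.06), and STING1 was the other gene called.

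Of 22 tested genes of interferon signalling and IRF regulators, 9 were lower and 1 was higher, beside 7.69% and 6.45% of all genes. STAT2 (log2 -2.35), IRF9 (log2 -1.86) and IRF1 (log2 -1.38), which carry or extend the interferon signal in the nucleus, were lower. IRF7, which amplifies interferon transcription, had 2.24 and 2.37 CPM in DKO libraries, against 28.1 and 30.8 CPM in STINGsg libraries (log2 -3.69, SE 0.12, adjusted p = 2.3e-18). USP18, which dampens the receptor and removes ISG15 from proteins, had 3.46 and 4.78 CPM in DKO libraries, against 88.1 and 87.3 CPM in STINGsg libraries (log2 -4.46, SE 0.10). Receptor and kinase genes stayed close, with IFNAR1 at log2 -0.02 (adjusted p = 0.9) and JAK1 the 1 gene called higher, at log2 0.23.

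**Figure D2:**
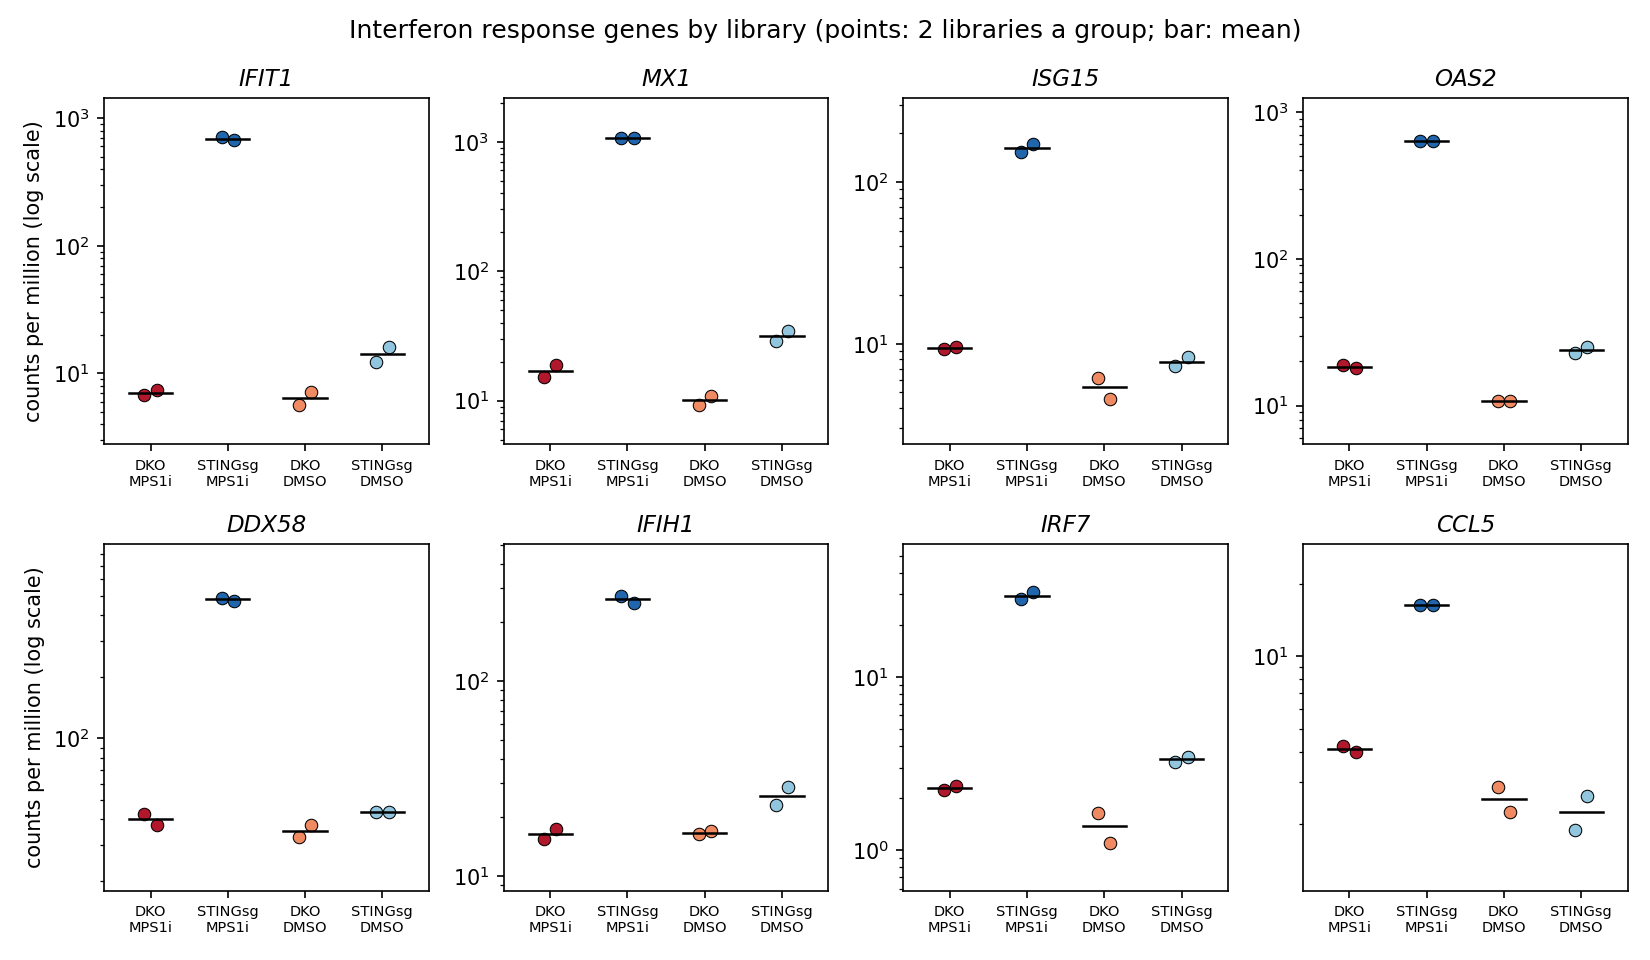
Level of 8 interferon response genes in CPM on log axes; each point is 1 library, each bar the mean of 2, in the order DKO MPS1i, STINGsg MPS1i, DKO DMSO and STINGsg DMSO. In every panel the STINGsg MPS1i libraries stand above the other 6 libraries, as for MX1 with 1073 and 1069 CPM against 15.1 and 18.8 CPM in DKO MPS1i.

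Among the effectors, the listed interferon-stimulated genes ranged from a log2 fold change of -7.57 to -0.66. IFIT1, which binds foreign RNA caps, had 6.74 and 7.38 CPM in DKO libraries, against 707 and 679 CPM in STINGsg libraries (log2 -6.63, SE 0.12, adjusted p = 1e-13). MX1, a dynamin-like antiviral GTPase, had 15.1 and 18.8 CPM in DKO libraries, against 1073 and 1069 CPM in STINGsg libraries (log2 -6.00, SE 0.09, adjusted p = 5.6e-20). ISG15, the ubiquitin-like modifier, had 9.24 and 9.60 CPM in DKO libraries, against 152 and 173 CPM in STINGsg libraries (log2 -4.11, SE 0.17, adjusted p = 1.5e-07). In each of the 60 genes both DKO libraries were below both STINGsg libraries. MX2 had log2 -7.57, XAF1 log2 -5.97, RSAD2 (viperin) log2 -5.82, HERC5 log2 -5.70, IFIT3 log2 -5.66, CMPK2 log2 -5.45 and IFI44L log2 -5.39. At the other end, IFITM2, a membrane protein that blocks viral entry, had 51.4 and 47.5 CPM in DKO libraries, against 77.8 and 79.4 CPM in STINGsg libraries (log2 -0.66, SE 0.07). Together the 60 genes made up 1615 to 1629 CPM in DKO libraries and 11570 to 11680 CPM in STINGsg libraries. Reads of close copies in this list (IFIT, IFITM, GBP and APOL genes) can be shared between members. CMPK2 and RSAD2 overlap each other on opposite strands, and IFIT1 and IFIT3 lie inside the annotated span of LIPA on the other strand.

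The lines already differed in this list without the pulse, but far less. Under DMSO 28 of the 60 genes were lower in DKO and 2 were higher, with a median of -0.31, beside 7.81% of all genes lower and 9.33% higher under DMSO. The DMSO comparison shares no library with the comparison after MPS1i. The test of the difference between these comparisons (the interaction) called 58 of the 60 genes lower, beside 3.17% of all genes tested. RSAD2 (interaction log2 -4.27, adjusted p = 0.18) and GBP4 (interaction log2 -1.77, adjusted p = 0.34) were the exceptions. As the list was written with earlier results of these data known, the count of 58 may partly reflect that choice. IFIT1 under DMSO had 5.66 and 7.08 CPM in DKO libraries, against 12.2 and 16.2 CPM in STINGsg libraries, and its interaction was log2 -5.50 (SE 0.21, adjusted p = 1.1e-09).

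Genes that act on double-stranded RNA followed the same direction, with 11 of 13 lower, none higher and a median of -1.89. OAS2, an antiviral oligoadenylate synthetase, had 18.8 and 18.02 CPM in DKO libraries, against 634 and 631 CPM in STINGsg libraries (log2 -5.10, SE 0.06, adjusted p = 1.4e-27). OAS3 (log2 -3.60) and OAS1 (log2 -2.86) were lower too. EIF2AK2, the kinase PKR, had 260 and 255 CPM in DKO libraries, against 1121 and 1071 CPM in STINGsg libraries (log2 -2.09, SE 0.05). ADAR, the editor that marks cellular double-stranded RNA as self, had 561 and 553 CPM in DKO libraries, against 1387 and 1374 CPM in STINGsg libraries (log2 -1.31, SE 0.04). DICER1 and PRKRA were not called (log2 -0.03 and 0.07).

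Of 25 tested genes of antigen presentation, 19 were lower in DKO and 2 were higher, with a median of -0.65. The shares over all genes were 7.69% lower and 6.45% higher. NLRC5, the class I transactivator, had 9.79 and 9.51 CPM in DKO libraries, against 42.6 and 44.9 CPM in STINGsg libraries (log2 -2.18, SE 0.08, adjusted p = 1e-16). TAP1, a chain of the peptide transporter, had 28.3 and 25.1 CPM in DKO libraries, against 103 and 110 CPM in STINGsg libraries (log2 -1.99, SE 0.09). PSMB9, an immunoproteasome subunit, had log2 -2.18 (SE 0.13). B2M, the light chain of class I, had 349 and 389 CPM in DKO libraries, against 753 and 751 CPM in STINGsg libraries (log2 -1.03, SE 0.05). The heavy chains were lower by log2 -1.07 for HLA-B, -1.03 for HLA-E and -0.77 for HLA-C, and reads can be shared among these similar genes. The 2 higher genes were of class II. HLA-DRA had 9.47 and 7.81 CPM in DKO libraries, against 3.66 and 2.94 CPM in STINGsg libraries (log2 1.40, SE 0.16, adjusted p = 2.9e-07), and CD74, the invariant chain, had log2 1.15 (SE 0.16). Both were higher in DKO under DMSO too, by log2 0.92 and 0.94, with interactions not called (adjusted p = 0.29 and 0.72).

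NF-kB and inflammatory genes were lower by smaller amounts. Of 32 tested, with a median of -0.28, 18 were lower and 1 was higher, beside 7.69% and 6.45% of all genes. CXCL8, the neutrophil chemokine, had 34.7 and 36.3 CPM in DKO libraries, against 58.0 and 58.4 CPM in STINGsg libraries (log2 -0.72, SE 0.07, adjusted p = 6.1e-09). PTGS2, the prostaglandin enzyme COX-2, had 527 and 536 CPM in DKO libraries, against 897 and 871 CPM in STINGsg libraries (log2 -0.73, SE 0.05). TNFAIP3, the NF-kB inhibitor A20, had log2 -0.60, and SOD2 had log2 -0.47. IL6 stood out for its level under DMSO, where DKO libraries had 30.4 and 30.6 CPM, against 13.8 and 14.4 CPM in STINGsg libraries (log2 1.11, adjusted p = 3.9e-11). After MPS1i IL6 had 35.9 and 36.9 CPM in DKO libraries, against 42.5 and 42.7 CPM in STINGsg libraries (log2 -0.23, adjusted p = 0.012), a call lost without DKO replicate 1 or either STINGsg replicate (adjusted p = 0.13, 0.062 and 0.085). The IL6 interaction was log2 -1.34 (adjusted p = 7.9e-11). The 1 higher gene was IL1B (log2 1.08, SE 0.33, adjusted p = 0.027), and the count of higher genes was 0 without DKO replicate 1 or without either STINGsg replicate.

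AP-1 and other immediate early genes went the same way, with 12 of 23 lower and 1 higher (JUND, log2 0.23). The shares over all genes were 7.69% lower and 6.45% higher. The count of higher genes was 0 without DKO replicate 1 or without either STINGsg replicate. EGR1 had 4.71 and 4.40 CPM in DKO libraries, against 11.9 and 13.2 CPM in STINGsg libraries (log2 -1.46, SE 0.13, adjusted p = 6.2e-09), and its interaction was called (log2 -1.47, adjusted p = 0.00076). FOSB had log2 -1.01 (SE 0.19), with an interaction that was not called (adjusted p = 0.63).

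Among 31 tested death receptors, caspases and BCL2 family genes, 13 were lower and 4 were higher (TNFRSF10D, TNFRSF9, BAX and GSDME). Over all genes tested, 7.69% were lower and 6.45% higher. CASP1, the inflammasome caspase, had 2.30 and 3.41 CPM in DKO libraries, against 11.4 and 10.2 CPM in STINGsg libraries (log2 -1.98, SE 0.14, adjusted p = 3.3e-11). MLKL, which executes necroptosis, had 35.1 and 36.8 CPM in DKO libraries, against 69.0 and 69.4 CPM in STINGsg libraries (log2 -0.95, SE 0.06). MCL1, which protects from apoptosis, had log2 -0.49 (SE 0.04). Opposite to these, TNFRSF10D, a decoy receptor for TRAIL, had 88.0 and 91.8 CPM in DKO libraries, against 43.7 and 42.1 CPM in STINGsg libraries (log2 1.07, SE 0.07, adjusted p = 1.6e-11). Under DMSO TNFRSF10D had 58.5 and 58.5 CPM in DKO libraries and 55.9 and 55.1 CPM in STINGsg libraries, and its interaction was log2 0.99 (adjusted p = 1.3e-07). The count of 4 higher genes fell to 2 without DKO replicate 1, to 2 without DKO replicate 2 and to 1 without STINGsg replicate 1.

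ACO1, cytosolic aconitase and an iron-responsive RNA-binding protein, differed between the lines after MPS1i but not under DMSO. It had 144 and 135 CPM in DKO libraries after MPS1i, against 57.6 and 60.1 CPM in STINGsg libraries (log2 1.24, SE 0.06, adjusted p = 1.9e-15). Under DMSO it had 147 and 142 CPM in DKO libraries, against 132 and 130 CPM in STINGsg libraries (adjusted p = 0.062), so the STINGsg MPS1i libraries were the ones that stood apart. The interaction was log2 1.10 (adjusted p = 5.2e-11). ACO1 lies on the plus strand of chromosome 9, and its annotated end at 32454769 is 533 bases from the facing end of DDX58 at 32455302 on the minus strand. The strand setting used for counting is not given in the sources used here.

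Metabolic and stress lists had small medians after MPS1i. Of 25 cholesterol synthesis genes, 13 were lower in DKO and none was higher, with a median of -0.18, beside 7.69% of all genes lower. The count fell to 8, 7 and 8 without DKO replicate 1, DKO replicate 2 and STINGsg replicate 2. STARD4, a sterol carrier, had 136 and 134 CPM in DKO libraries, against 233 and 219 CPM in STINGsg libraries (log2 -0.74, SE 0.05, adjusted p = 3.2e-11). HMGCS1, an early enzyme of the pathway, was lower in DKO after MPS1i (log2 -0.34) and higher in DKO under DMSO (log2 0.20), with an interaction of log2 -0.54 (adjusted p = 4.9e-07). Of 31 genes of the ATF4 and endoplasmic reticulum stress list, 10 were lower and 4 were higher, and 6 were lower and 2 higher without DKO replicate 1. The 4 higher genes, PSAT1, PHGDH, ALDH18A1 and PYCR1, were also 2 without DKO replicate 2 and 2 without STINGsg replicate 1. WARS1, a tRNA synthetase that interferon is known to induce, had 207 and 206 CPM in DKO libraries, against 329 and 330 CPM in STINGsg libraries (log2 -0.68, SE 0.04). PSAT1, a serine synthesis enzyme, was higher in DKO after MPS1i (log2 0.29) and lower under DMSO (log2 -0.56), with an interaction of log2 0.85 (adjusted p = 1.2e-09). ASNS, which makes asparagine, did not differ after MPS1i (log2 0.07, adjusted p = 0.53) and was lower in DKO under DMSO (log2 -0.91, adjusted p = 4.7e-11). Over the whole ATF4 and endoplasmic reticulum stress list, 16 of 31 were lower and 2 higher under DMSO, with a median of -0.20. The interaction was called higher for 10 of the 31 and lower for 4, beside 1.55% and 3.17% of all genes.

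**Figure D3:**
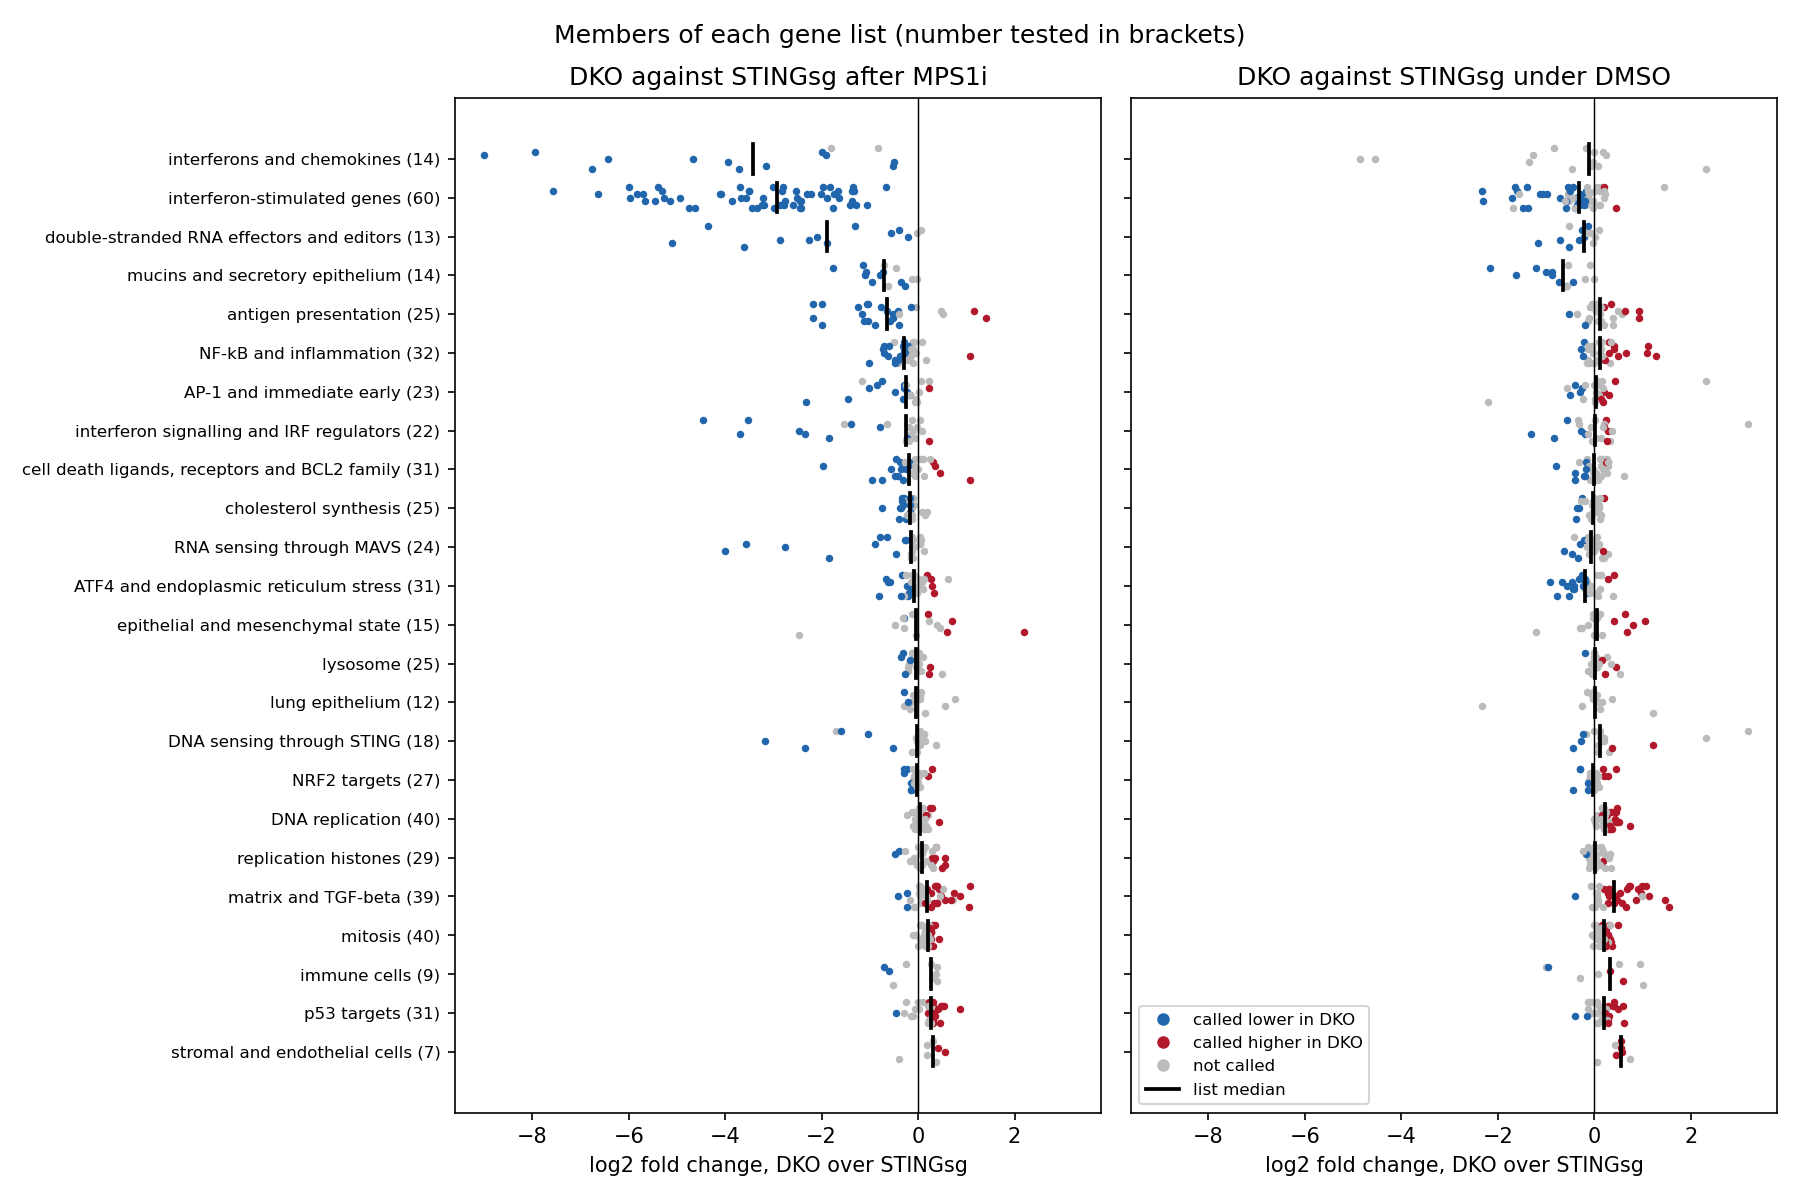
Log2 fold change of DKO over STINGsg for each tested member of 24 gene lists, after MPS1i on the left and under DMSO on the right; points are genes, coloured by call at an adjusted p under 0.05, black bars are list medians, and brackets give the number tested. The interferon, interferon-stimulated and double-stranded RNA lists have medians of -3.43, -2.92 and -1.89 after MPS1i and of -0.12, -0.31 and -0.21 under DMSO, while the mucin list has -0.71 and -0.65.

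Secretory and matrix genes differed between the lines with and without the pulse. Of 14 tested mucin and secretory genes of 20 listed, 9 were lower in DKO after MPS1i and 9 were lower under DMSO. Over all genes, 7.69% were lower after MPS1i and 7.81% under DMSO. CEACAM6, a cell surface glycoprotein, had 694 and 652 CPM in DKO libraries after MPS1i, against 1427 and 1404 CPM in STINGsg libraries (log2 -1.07, SE 0.04, adjusted p = 2.9e-16), and log2 -1.01 under DMSO. CEACAM5, the carcinoembryonic antigen, had 10.9 and 10.8 CPM in DKO libraries, against 37.6 and 36.1 CPM in STINGsg libraries (log2 -1.76, SE 0.08). MUC13, MUC5B and MUC5AC were lower by log2 -0.95, -1.10 and -0.72 after MPS1i and by -0.73, -1.62 and -0.87 under DMSO.

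Of 39 tested matrix and TGF-beta genes, 18 were higher and 3 were lower in DKO after MPS1i. Under DMSO 25 were higher and 1 was lower. Over all genes, 6.45% were higher and 7.69% lower after MPS1i, and 9.33% and 7.81% under DMSO. The list median was 0.18 after MPS1i and 0.41 under DMSO. The interaction was called lower for 9 of the 39 and higher for none, beside 3.17% and 1.55% of all genes. The 3 lower genes fell to 1 without DKO replicate 1 or without STINGsg replicate 2. THBS1, the matrix glycoprotein thrombospondin 1, had 136 and 125 CPM in DKO libraries after MPS1i, against 65.6 and 60.5 CPM in STINGsg libraries (log2 1.05, SE 0.06, adjusted p = 1.6e-13). FN1, which encodes fibronectin, had log2 0.86 (SE 0.05), and COL5A1, a fibrillar collagen chain, had log2 1.08 (SE 0.10). The intermediate filament gene VIM had 312 and 288 CPM in DKO libraries, against 193 and 204 CPM in STINGsg libraries (log2 0.59, SE 0.05), and CDH2, which encodes N-cadherin, had log2 0.70 (SE 0.11). Under DMSO THBS1 had log2 1.56, FN1 log2 1.13, COL5A1 log2 1.06, VIM log2 0.67 and CDH2 log2 1.06.

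**Figure D4:**
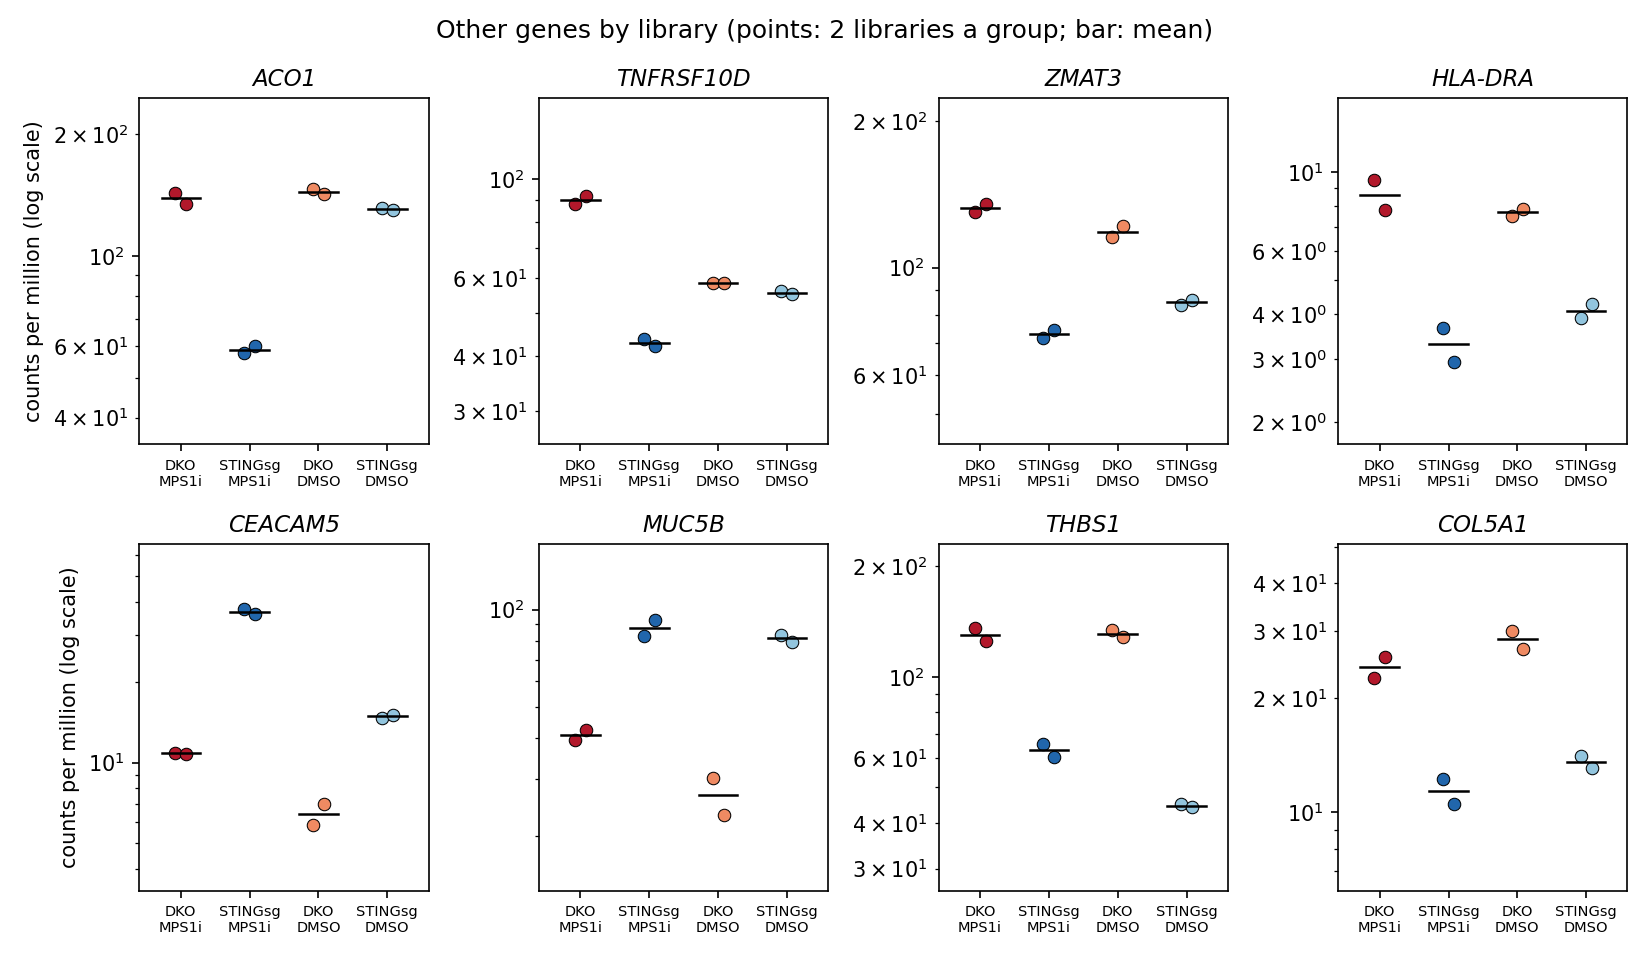
Level of 8 further genes in CPM on log axes; each point is 1 library, each bar the mean of 2, in the order DKO MPS1i, STINGsg MPS1i, DKO DMSO and STINGsg DMSO. ACO1 separates the STINGsg MPS1i libraries (57.6 and 60.1 CPM) from the other 6, whereas CEACAM5, MUC5B, THBS1 and COL5A1 separate the lines in both treatments.

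Cell cycle genes and p53 targets differed by small amounts, mostly higher in DKO, beside 6.45% of all genes higher after MPS1i. Of 40 mitosis genes, 14 were higher in DKO after MPS1i and 17 under DMSO, none was lower and no interaction was called. The 14 became 9 without DKO replicate 2 or without STINGsg replicate 1. MKI67, the proliferation marker, had 472 and 485 CPM in DKO libraries after MPS1i, against 460.4 and 459 CPM in STINGsg libraries (adjusted p = 0.51), and 840 and 903 CPM in DKO libraries under DMSO, against 770 and 784 CPM in STINGsg libraries. Of 31 p53 targets, 15 were higher and 1 was lower, with a median of 0.27, and 12 were higher under DMSO. ZMAT3, an RNA-binding p53 target, had 130.1 and 135 CPM in DKO libraries, against 71.5 and 74.4 CPM in STINGsg libraries (log2 0.86, SE 0.05, adjusted p = 2e-12). CDKN1A, which encodes the cell cycle inhibitor p21, had 237 and 213 CPM in DKO libraries, against 179 and 189 CPM in STINGsg libraries, and was not called (log2 0.29, SE 0.11, adjusted p = 0.1). CDKN1A was called with no filter on low counts (adjusted p = 0.00027) and with only the groups compared in the fit (adjusted p = 4.8e-05).

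Each line also responded to MPS1i, in comparisons that share libraries with those above. Against its own DMSO libraries, DKO had 2648 genes called (14.8%) and STINGsg had 5269 (29.4%).

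Across all genes, the overlap with the DMSO comparison differed by direction. Of the 1380 genes lower after MPS1i, 493 were also lower under DMSO (35.7%, and 35.2% of the DMSO list). Of the 1157 higher genes, 654 were also higher under DMSO (56.5%, and 39% of the DMSO list). The interaction was called for 848 genes (4.72%), 569 lower (3.17%) and 279 higher (1.55%). Leaving out 1 library at a time gave 535 to 1107, with the fewest without DKO MPS1i replicate 1, and 362 to 697 lower and 153 to 410 higher. The interaction was called lower for 163 of the 257 genes with a fall of at least 2-fold (63.4%). It was called higher for 11 of the 118 with a rise of at least 2-fold (9.32%). Those genes were picked by their difference after MPS1i, which is part of the interaction. Both shares are therefore partly set by selection and cannot be compared with those of all genes. The largest rises by the rule were ALDH1A3, XXbac-B461K10.4, LINC00665, SLC16A9, RAB6B, BEND4, EYA2, ANKRD30BP2, TOX2 and ITGA4, at log2 1.44 to 1.87. ALDH1A3, a retinoic acid enzyme, had 2.24 and 2.13 CPM in DKO libraries, against 0.458 and 0.727 CPM in STINGsg libraries (log2 1.87, SE 0.35, adjusted p = 0.00038). None of these 10 had a called interaction, and 7 of them averaged under 3 CPM in DKO libraries. XXbac-B461K10.4, BEND4, EYA2 and TOX2 lost the call when DKO replicate 1 was left out (adjusted p = 0.23, 0.058, 0.4 and 0.064). Without STINGsg replicate 1 BEND4, EYA2 and TOX2 lost it (adjusted p = 0.067, 0.17 and 0.062), and XXbac-B461K10.4 lost it without DKO replicate 2 or STINGsg replicate 2 (adjusted p = 0.052 and 0.26).

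**Figure D5:**
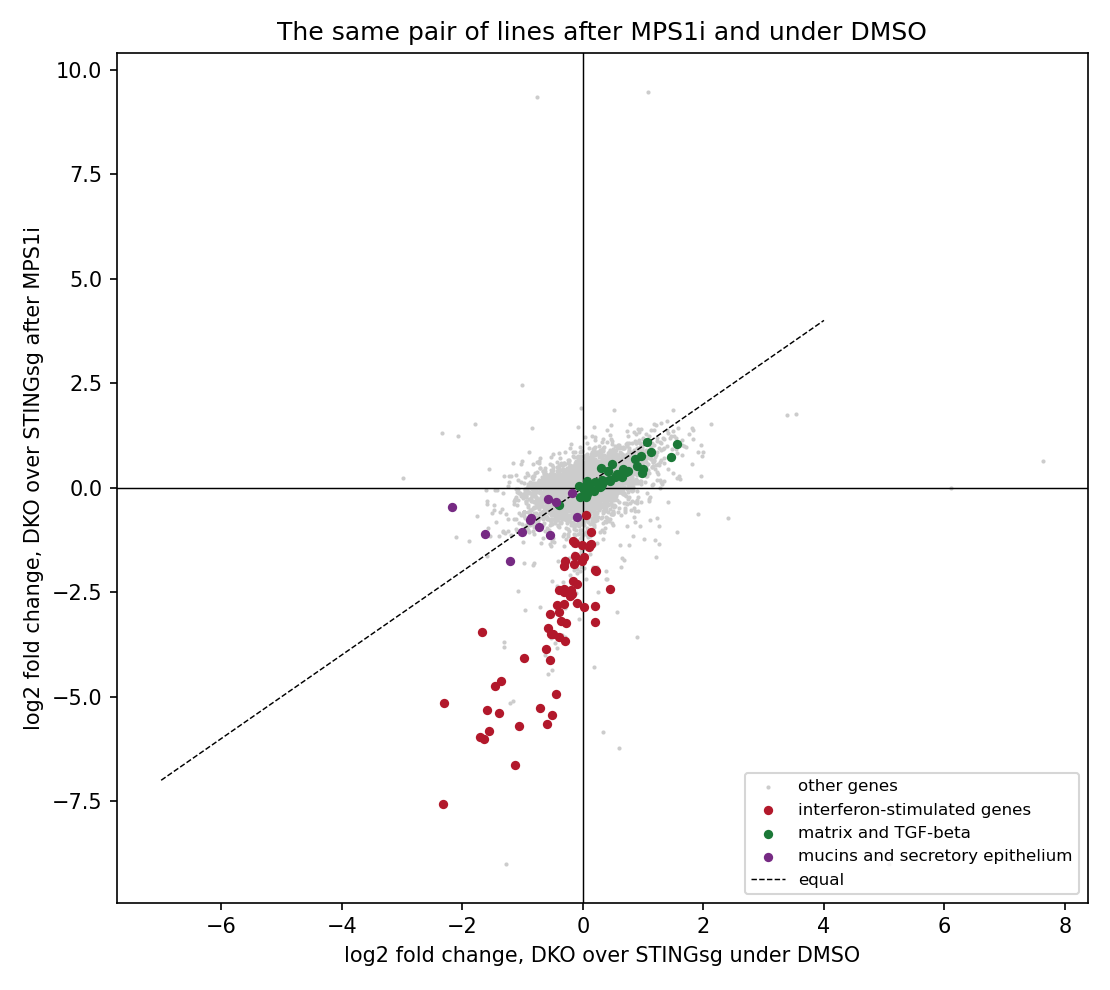
Log2 fold change of DKO over STINGsg after MPS1i (vertical) against the same under DMSO (horizontal) for genes of at least 1 CPM; red, green and purple points are the interferon-stimulated, matrix and mucin lists, and the dashed line marks equal values. The red points lie below the dashed line (median -2.92 after MPS1i, -0.31 under DMSO), the purple points spread along it, and the green points lie mostly below it (median 0.18 after MPS1i, 0.41 under DMSO).

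Directions were opposite for 65 genes of at least 1 CPM, called in both comparisons. TRIM22, an antiviral TRIM protein, averaged 16.8 CPM in DKO and 89.9 CPM in STINGsg libraries after MPS1i (log2 -2.42), and 12.8 CPM in DKO and 9.36 CPM in STINGsg libraries under DMSO (log2 0.45, adjusted p = 0.0011). HLA-B and CXCL8 also were lower in DKO after MPS1i and higher under DMSO. The long noncoding RNA NEAT1 went the other way, with 344 CPM in DKO and 280 CPM in STINGsg libraries after MPS1i (log2 0.30), and 337 CPM in DKO and 522 CPM in STINGsg libraries under DMSO (log2 -0.63). TRIM22 and NEAT1 were singled out after their values were seen.

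Further lists had calls of small size, with none of their called genes 2-fold apart but ESRP1 (log2 2.19), which was at most 0.349 CPM in the 4 libraries, beside 7.69% of all genes called lower and 6.45% called higher. Of 40 DNA replication genes, 4 were higher in DKO after MPS1i and none was lower, while 17 were higher under DMSO. Those 4, among them RRM1, TYMS and CCNE1, became 1 without DKO replicate 1 and 2 without DKO replicate 2 or STINGsg replicate 2. Of 29 tested replication histone genes, which are near-identical in part, 7 were higher and 2 lower, and without STINGsg replicate 1 only 2 were higher. The 2 lower became 1 without DKO replicate 1, DKO replicate 2 or STINGsg replicate 2. Of 27 NRF2 targets 6 were lower and 2 higher, and 3 were lower without DKO replicate 1 or DKO replicate 2. The higher NRF2 targets, HMOX1 and FTL, became 1 without DKO replicate 1 or STINGsg replicate 2 and 0 without DKO replicate 2 or STINGsg replicate 1. Of 25 lysosome genes 4 were lower and 2 higher, and 2 were lower without DKO replicate 1 or STINGsg replicate 2. Of 15 tested genes of epithelial and mesenchymal state 4 were higher (CDH2, VIM, ESRP1 and AXL) and 1 lower (CDH1), and 2 were higher without STINGsg replicate 1.

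Some epithelial keratins were present and most immune and stromal markers were scarce. KRT7, KRT8 and KRT18, keratins of simple epithelium, were expressed in all 4 libraries, whereas NKX2-1 and the surfactant genes were at or near 0. The keratin KRT19 and CLDN3 of the same list did not pass the filter on low counts. Of the epithelial and mesenchymal list, ESRP2, OVOL1, GRHL2 and KRT5 did not pass it either. Of 12 tested lung epithelium markers of 20 listed, 2 were lower (CDH1 and KRT8), and the list summed to 3032 to 3038 CPM in DKO libraries and 3277 to 3510 CPM in STINGsg libraries. The 2 became 1 without DKO replicate 1, DKO replicate 2 or STINGsg replicate 2. Of 23 immune cell markers, 8 had no read in the 4 libraries, among them CD3D, NKG7 and AIF1. CD68 and S100A9 were the 2 called lower, and the list summed to 156 to 162 CPM in DKO libraries and 230 to 244 CPM in STINGsg libraries, and their part in the results was not tested. Of 7 tested stromal markers of 17 listed, DCN and FAP were higher and none was lower. These marker counts stand beside 7.69% of all genes lower and 6.45% higher. Chromosome medians of the log2 fold change lay between -0.04 and 0.03 after MPS1i and between -0.05 and 0.04 under DMSO over 23 chromosomes. Library totals ran from 19893784 to 49769938 reads over the series, and from 20635229 to 33601232 in the 4 libraries compared.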

How the data were processed

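RNA was measured in 16 libraries of 8 groups, 2 per group, after poly(A) enrichment and a stranded kit, per the labels' protocols. The values are raw counts per gene as the authors deposited them. Trim Galore, Trimmomatic, cutadapt, STAR, featureCounts and the GRCh38 (hg38) build are named in the submitters' processing notes, without versions; the strand setting and the handling of multiply mapped reads are not given in the sources used here. Library totals of 19893784 to 49769938 reads set the precision, and floors of 3 counts per library cover counting error only.

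From the counts, edgeR 4.0.16 (R 4.3.3) filtered low genes (minimum count 10), scaled by TMM and fitted 1 quasi-likelihood model over all 8 groups (8 residual degrees of freedom). Calls use Benjamini-Hochberg adjusted p under 0.05 over all genes tested. The interaction is the difference between the lines after MPS1i minus that under DMSO. Code was tested on simulated data. Named genes are 20 fixed genes, the 10 largest falls and 10 largest rises of at least 1 CPM without overlap between groups, the 6 largest interactions each way, and up to 4 per list by adjusted p; some items are not reported here, and genes outside this rule were chosen after their values were seen. Members and lists were chosen with earlier results of these data known. Alternatives were DESeq2 1.42.0, its size factors, other filters, only the groups compared, a replicate block, equal depth and leaving out each library.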

Additional observations from a re-analysis of the deposited data

Results flagged for a closer look

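The interaction test called 73 of 126 named genes at an adjusted p under 0.05 (edgeR quasi-likelihood test). For these the difference between DKO and STINGsg was not the same after MPS1i as under DMSO. Of the 73 interactions, 63 were below 0 and 10 above 0. The naming rule took in the 6 largest interactions each way, and genes by size or adjusted p after MPS1i. These counts are therefore partly set by selection and cannot be compared with the 4.72% of all genes called. The values are log2 interactions, a negative one meaning that DKO was lower relative to STINGsg after MPS1i than under DMSO. Interferon-stimulated genes and effectors on double-stranded RNA had values of -5.50 for IFIT1, -5.07 for IFIT3, -4.36 for MX1, -5.24 for MX2, -3.56 for ISG15, -4.93 for CMPK2, -4.64 for HERC5, -3.99 for IFI44L, -4.26 for XAF1, -3.001 for SP110, -2.58 for PARP9, -2.39 for PARP14, -2.15 for OAS1, -3.94 for OAS2, -3.08 for OAS3 and -1.88 for EIF2AK2. RP11-326C3.17, in no list and overlapping IFITM1 and IFITM2, had -6.82. The MX2 call was lost under the replicate block (adjusted p = 0.052), at equal depth (adjusted p = 0.056) and without any 1 of the 8 libraries (adjusted p = 0.065 to 0.27). Sensors and signalling genes had values of -3.28 for DDX58, -3.38 for IFIH1, -2.61 for DHX58, -1.52 for TRIM25, -0.81 for TRIM56, -1.92 for IFI16, -2.90 for SAMHD1, -1.70 for TREX1, -0.91 for STING1, -2.21 for STAT2, -2.37 for IRF7 and -3.88 for USP18. Ligands and antigen presentation genes had values of -3.08 for TNFSF10, -3.25 for TNFSF13B, -2.16 for CCL5, -2.14 for CD274, -2.23 for NLRC5, -1.15 for TAP2, -1.09 for B2M, -1.42 for HLA-B and -1.18 for HLA-E. Inflammatory, immediate early and death genes had values of -1.12 for CXCL8, -1.34 for IL6, -0.46 for PTGS2, -0.46 for SOD2, -0.48 for TNFAIP3, -1.47 for EGR1, -0.81 for ATF3, -1.83 for CASP1, -0.56 for MLKL and -0.27 for MCL1. The immune cell marker CD68 had -0.93. Other genes below 0 had values of -0.42 for AXL, -0.56 for CEACAM5, -0.21 for CTSB, -0.31 for CTSL, -0.27 for FN1, -0.32 for H2BC21, -0.54 for HMGCS1, -0.38 for INSIG1, -0.29 for KRT8, -0.22 for MUC13, -0.42 for PPP1R15A, -0.39 for STARD4, -0.50 for THBS1 and -0.36 for WARS1. Above 0 the values were 1.10 for ACO1, 1.07 for GPR1, 0.35 for H2BC4, 1.37 for MIR181A1HG, 0.85 for PSAT1, 1.42 for STAG3L4, 0.99 for TNFRSF10D, 1.16 for TNFRSF9, 0.38 for ZMAT3 and 1.76 for ZNF20. The STAG3L4 call was lost without DKO MPS1i replicate 1 (adjusted p = 0.09), and the ZNF20 call was lost without that library (adjusted p = 0.052) or without STINGsg DMSO replicate 2 (adjusted p = 0.075).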

How the results depend on the processing

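No called result of a named gene was reversed in any alternative that tested it. List medians near 0 changed sign for DNA sensing (0.002 at equal depth), lung epithelium (-0.17 to 0.05), epithelial and mesenchymal state (-0.12 to 0.09) and immune markers (-0.29 to 0.31), and the 60 interferon-stimulated genes stayed at 60 called lower. Leaving out 1 library at a time gave 1473 to 1703 calls after MPS1i (2537 with all), 860 to 977 lower and 613 to 737 higher, with 215 to 233 lower and 75 to 108 higher by at least 2-fold. It gave 1702 to 2971 calls under DMSO (3077 with all), 820 to 1369 lower and 854 to 1602 higher. For the interaction it gave 535 to 1107 (848 with all), 362 to 697 lower and 153 to 410 higher. Fitting only the groups compared gave 1983 calls under DMSO, 901 lower and 1082 higher, and DESeq2 gave 73 genes higher by at least 2-fold after MPS1i, against 118; the cause was not tested. Fitting only the groups compared also gave 11 higher histone genes (against 7), 7 lower lysosome genes (4), 5 lower lung epithelium genes (2), 3 lower p53 targets (1), 2 higher AP-1 genes (1) and 1 higher cholesterol gene (0). DESeq2 gave 0 higher NF-kB genes (1) and 2 lower p53 targets, and a filter of 1 CPM in 2 libraries gave 2 lower p53 targets. At equal depth 0 NF-kB genes, 2 AP-1 genes, 1 cholesterol gene and 1 immune marker were higher and 1 matrix gene was lower (3). Of 134 called named results, 21 lost the call in some alternative. Same-numbered replicates did not deviate together in the compared groups after MPS1i (correlation 0.0028). Over all pairs of groups the correlation ran from -0.27 to 0.021, the lowest between STINGsg MPS1i and DKO DMSO. With 2 libraries a group, these values cannot decide whether the numbers mark shared cultures or batches. The replicate block gave 2565 calls after MPS1i, 3102 under DMSO and 854 for the interaction, and CDKN1A was then called (adjusted p = 0.027). With 2 libraries a group and low counts, small differences in genes under a few CPM were not detectable at this depth.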

Other observations

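Several genes lower in DKO by at least 2-fold lie in no list (146 of 257). Among them, chosen after their values were seen, PNPT1, a mitochondrial RNA-degrading enzyme, had 67.0 and 62.9 CPM in DKO libraries, against 351 and 308 CPM in STINGsg libraries (log2 -2.34), and LAP3, an aminopeptidase, had 43.7 and 38.3 CPM in DKO libraries, against 168 and 173 CPM in STINGsg libraries (log2 -2.05). RP11-326C3.17 had log2 -6.22, but it overlaps IFITM1 and IFITM2 on the same strand, so its reads cannot be told apart from theirs.

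Of the genes tested, 37 have a 3′ end within 5000 bases of the 3′ end of an opposite-strand gene lower by at least 2-fold, a count added after the ACO1 values were seen and holding ACO1 itself. After MPS1i 10 of the 37 were lower and 4 higher, beside 7.69% and 6.45% of all genes tested. The interaction was called lower for 8 and higher for 3, beside 3.17% and 1.55% of all genes. Some of the lower genes, among them XAF1, TAP1, IFITM1 and IFITM3, are themselves lower by at least 2-fold and face another such gene. They belong to the genes used to pick the 37. The lower counts are therefore partly set by selection and cannot be compared with those shares. The 3 with a higher interaction are ACO1 beside DDX58, GPATCH11 beside EIF2AK2 (log2 0.80) and VAT1 beside IFI35 (log2 0.45).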
